A study of Mus musculus with 8 samples.

Results

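Plac9a, Tmem254a and Duxbl1 are the first copies of a gene block that is repeated on mouse chromosome 14. Transcript counted under all 3 names was lower in retinas of PD-L1 knockout mice than in control retinas. Their levels in the knockout were 31.0%, 43.7% and 32.6% of those in the control. The 6 genes asked for by symbol were Plac9a, Plac9b, Tmem254a, Tmem254b, Tmem254c and Duxbl1. Of these, 3 matched a row among the 25477 genes of the count table, and the later copies Plac9b, Tmem254b and Tmem254c were not analysed here. The genes were chosen because Plac9a and Duxbl1 were among the largest decreases in this same comparison, so their differences between the groups are given as a description and support nothing by themselves.

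Messenger RNA was measured in 8 samples of mouse retina, all named for choroidal neovascularization (CNV), in which vessels from the choroid grow under the retina. In 4 samples the genotype was PD-L1 knockout and in 4, titled WT, it was control; PD-L1, encoded by Cd274, is the ligand of the immune checkpoint receptor PD-1. The sources used here do not give the strain, sex and age of the mice, the construction of the knockout allele, or how and when the vessel growth was induced. The labels do not tie the samples to separate animals, so the spread between them may be technical.

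Plac9 encodes a small secreted protein named for its abundance in placenta. Tmem254 encodes a small membrane protein whose function is little described. Duxbl genes encode transcription factors with a double homeobox, related to Dux, which drives genes of the earliest embryonic stage. Genes in a duplicated block can keep almost the same sequence in every copy, and a short read from such a gene can then align equally well to several copies.

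The 3 analysed genes lie in the first copy of the repeated unit. Plac9a and Tmem254a adjoin, while the pseudogene Gm19013 and the homeobox gene Cphx1 lie between Tmem254a and Duxbl1. In the RefSeq annotation of GRCm38.p6 (the assembly also called mm10), Plac9a (Entrez gene 211623) spans chr14:25888403-25902893, Tmem254a (66039) spans chr14:25923298-25927672 and Duxbl1 (278672) spans chr14:25978560-25990166. The unit then recurs, so that the annotation holds 3 copies of it over 381 kb. The second copy begins 139 kb after the first with Gm9780, a Plac9 gene, followed by Tmem254c and Duxbl2. The third begins a further 140 kb on with Plac9b, followed by Tmem254b and Duxbl3. Plac9a and Tmem254a are transcribed from the minus strand and Duxbl1 from the plus strand. Its neighbour outside the block, Anxa11, is transcribed toward Plac9a and ends 1.6 kb before it.

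The copies could hardly be told apart by sequence. The coding sequence of Plac9a (324 bases) was identical to that of Plac9b, and Gm9780 differed from both by 5 substitutions. The coding sequences of Tmem254a, Tmem254b and Tmem254c (387 bases) were identical, as were those of Duxbl1, Duxbl2 and Duxbl3 (1050 bases). Over whole GENCODE M21 transcripts, 99.7% of the 100-base windows of Plac9a, 73.6% of those of Tmem254a and 86.9% of those of Duxbl1 also occurred in a transcript of another gene. In these 100-base windows, every such match was to another copy of the same family. The own part of Tmem254a was mostly the longer end of one annotated transcript (2147 bases, against at most 1447 in Tmem254b), and sequence outside annotated transcripts was not searched. The sources used here do not state how reads with several alignments were counted. The counts listed under Plac9a, Tmem254a and Duxbl1 therefore cannot be assigned to 1 copy, and each may hold reads from any copy of its family. If reads with several alignments were left out, the counts would instead lack most reads from shared sequence. Of the 100-base windows, 0.3% for Plac9a, 26.4% for Tmem254a and 13.1% for Duxbl1 occurred in no other gene's transcripts.

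**Figure D1:**
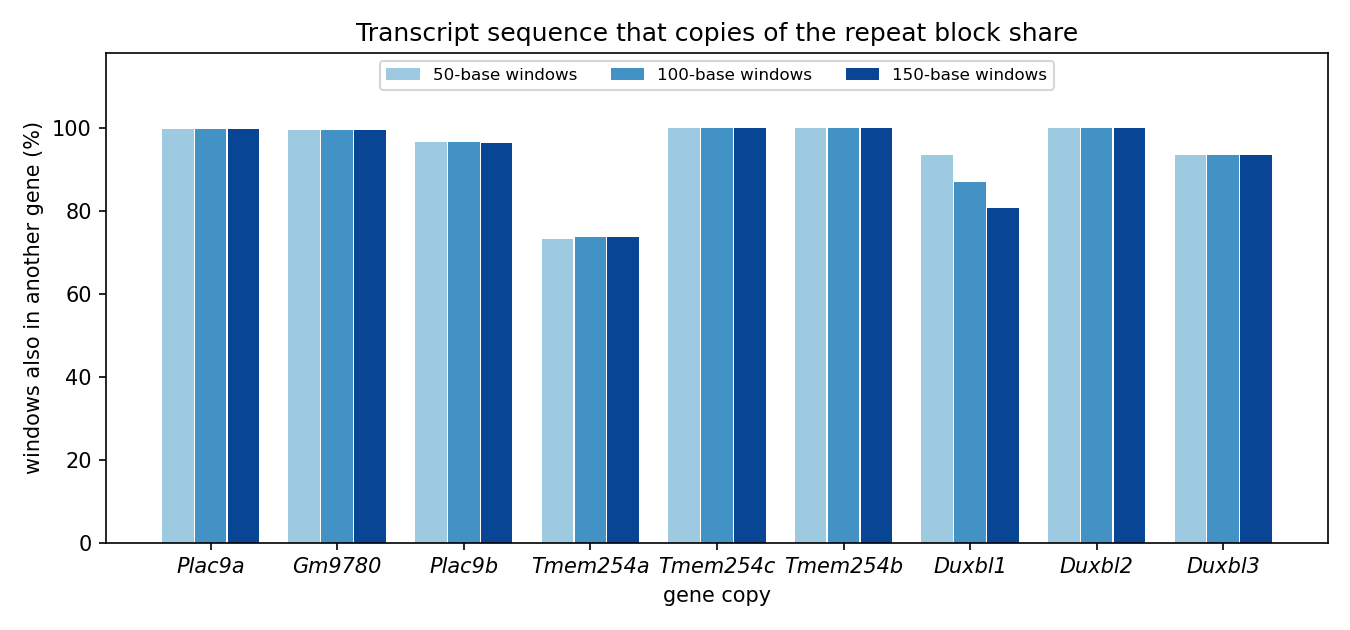
Percentage of 50-, 100- and 150-base windows of each gene copy's annotated transcripts that also occur in a transcript of another gene, on either strand. At 100 bases, Plac9a, Tmem254a and Duxbl1 share 99.7%, 73.6% and 86.9% of their windows.

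The sequences before the annotated starts are shown because they display how alike the copies are. Each line gives the 250 bases before the start of the gene, from RefSeq on GRCm38.p6, all on the minus strand, at chr14:25902894-25903143 for Plac9a, chr14:26182352-26182601 for Plac9b, chr14:25927673-25927922 for Tmem254a and chr14:26207026-26207275 for Tmem254b. Lower case marks the stretch that a pair has in common, and capitals mark bases that only 1 of the pair's windows covers.
Plac9a: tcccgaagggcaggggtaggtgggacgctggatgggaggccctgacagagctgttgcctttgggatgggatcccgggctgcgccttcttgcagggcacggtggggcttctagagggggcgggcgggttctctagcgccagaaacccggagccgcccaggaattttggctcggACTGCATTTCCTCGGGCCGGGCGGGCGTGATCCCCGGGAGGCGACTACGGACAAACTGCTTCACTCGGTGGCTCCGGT
Plac9b: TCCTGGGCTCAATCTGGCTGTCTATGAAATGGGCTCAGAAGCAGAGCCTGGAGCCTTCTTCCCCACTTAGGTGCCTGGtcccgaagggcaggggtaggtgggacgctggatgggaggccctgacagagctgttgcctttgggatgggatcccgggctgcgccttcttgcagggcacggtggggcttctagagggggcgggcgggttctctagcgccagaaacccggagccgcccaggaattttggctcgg
Tmem254a: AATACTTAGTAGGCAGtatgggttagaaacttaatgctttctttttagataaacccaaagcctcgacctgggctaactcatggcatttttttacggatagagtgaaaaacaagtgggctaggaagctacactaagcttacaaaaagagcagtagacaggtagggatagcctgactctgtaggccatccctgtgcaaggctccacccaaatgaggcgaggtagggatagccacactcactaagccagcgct
Tmem254b: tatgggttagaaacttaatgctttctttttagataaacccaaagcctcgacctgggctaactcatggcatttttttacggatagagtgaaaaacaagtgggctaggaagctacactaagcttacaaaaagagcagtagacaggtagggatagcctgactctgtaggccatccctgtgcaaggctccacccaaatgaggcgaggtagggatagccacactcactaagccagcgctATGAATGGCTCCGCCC
The common stretch of Plac9a and Plac9b is 172 bases long and that of Tmem254a and Tmem254b 234 bases long, both without a substitution. The capitals thus come from annotated starts that lie 78 and 16 bases apart, not from differing letters. The windows of Gm9780 and Tmem254c were identical to those of Plac9b and Tmem254a.

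The windows of Plac9a and Tmem254a differed in make-up, and some of these values also varied between copies with the annotated start. The Plac9a window had a GC content of 66.8% with 20 CG pairs, against a median of 52.4% and 6 pairs over 32851 mouse promoters of that length. The Plac9b and Gm9780 windows had a GC content of 63.6% with 11 CG pairs. The Tmem254a window had a GC content of 46.0% with 4 CG pairs. A GC box (GGGCGG, either strand) occurred 4 times before Plac9a and not before Tmem254a, and 32.7% of all promoters hold at least 1. Plac9b and Gm9780 had 3 each and Tmem254b had 1, so its absence was not shared by all Tmem254 copies. An E-box (CANNTG, either strand) occurred 2 times before Tmem254a and not before Plac9a, and 66.2% of all promoters hold it. CCAAT (in 33.8% of promoters), the STAT site TTCNNNGAA (in 7.0%) and the homeobox core TAATTA (in 4.8%), also searched on both strands, were found in none of the windows.

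Plac9a transcript in knockouts averaged 31.0% of the control level. Its counts were 125, 167, 145 and 138 in knockouts 1 to 4 and 390, 522, 540 and 259 in controls 1 to 4. Scaled to the TMM-adjusted library size (CPM) these were 3.53, 4.84, 4.06 and 3.95 for the knockouts and 12.2, 16.4, 16.6 and 7.67 for the controls. Every knockout lay below every control, but control 4 stood well under the other controls and its level was 1.58 times that of the highest knockout. The means were 4.10 ± 0.55 CPM and 13.2 ± 4.23 CPM (SD, n = 4 each), a log2 fold change of -1.69 (SE 0.23). Whole retina does not show whether fewer cells carried the transcript or each cell carried less of it.

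Tmem254a transcript in knockouts averaged 43.7% of the control level. Its counts were 227, 227, 253 and 233 in the knockouts and 482, 474, 436 and 601 in the controls. The knockout levels were 6.42, 6.58, 7.08 and 6.66 CPM and the control levels 15.1, 14.9, 13.4 and 17.8 CPM. The lowest control was 1.9 times the highest knockout, and here control 4 was the highest library of all. The means were 6.69 ± 0.28 and 15.3 ± 1.81 CPM (SD, n = 4 each), a log2 fold change of -1.20 (SE 0.13).

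Duxbl1, the double homeobox gene, averaged 32.6% of the control level in knockouts. Its counts were 108, 71, 57 and 55 in the knockouts and 233, 260, 166 and 164 in the controls. The knockout levels were 3.05, 2.06, 1.60 and 1.57 CPM and the control levels 7.31, 8.17, 5.11 and 4.85 CPM. Knockout 1 was the highest knockout and controls 3 and 4 the lowest controls, and the groups did not overlap. The means were 2.07 ± 0.69 and 6.36 ± 1.63 CPM (SD, n = 4 each), a log2 fold change of -1.62 (SE 0.26).

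**Figure D2:**
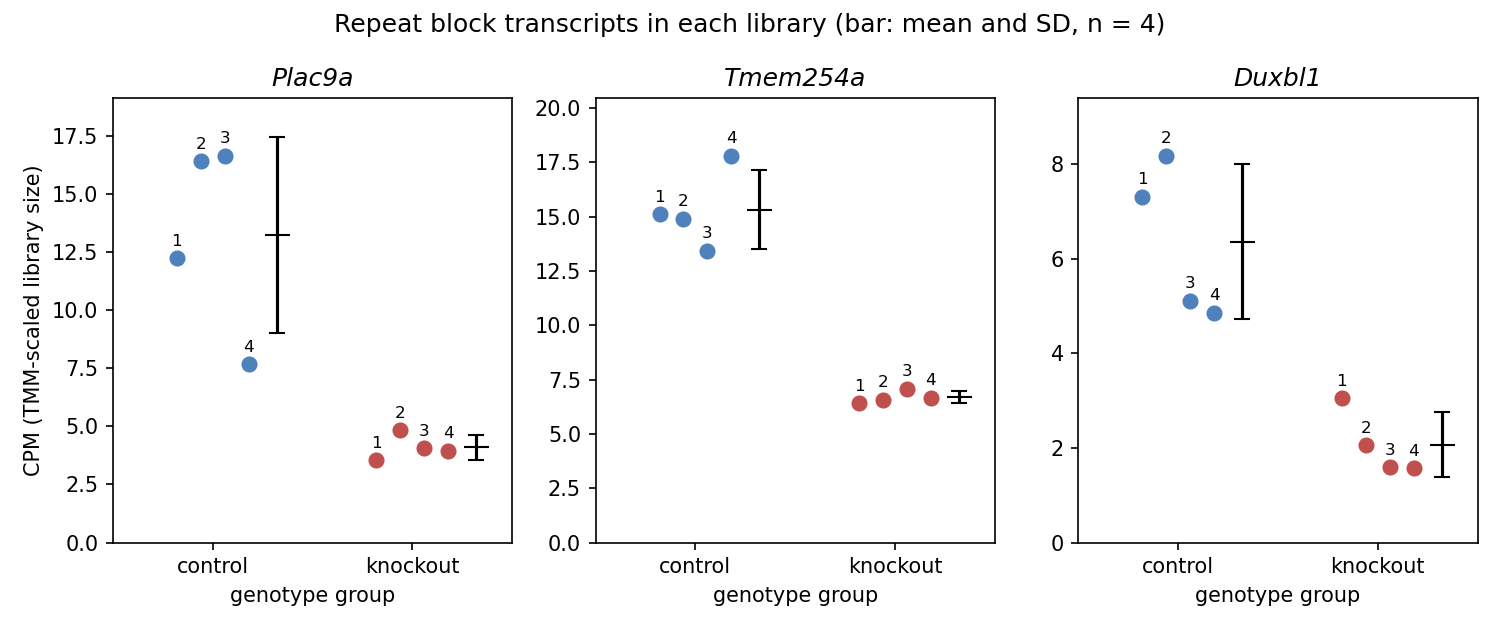
Level of each gene in CPM (vertical axis, from 0) in the 4 control and 4 knockout libraries, numbered as in their titles, with the mean and SD beside each group. The knockout libraries lie below all controls in each panel, and control 4 is the lowest control for Plac9a and the highest for Tmem254a.

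All 3 genes passed the threshold as lower in the knockout (edgeR quasi-likelihood test, Benjamini-Hochberg adjusted p under 0.05), as did 1.35% of the 16861 genes tested. In all 3 the knockout values lay wholly under the control values, which held for 5.78% of genes tested. Because the genes were picked from this comparison, nothing is read from these counts. The log2 fold change was lower still in 38 tested genes for Plac9a, in 45 for Duxbl1 and in 113 for Tmem254a, with a median of 0.00 over all tested genes. Knockout 3, control 2 and control 3 were rich in lens RNA. With them left out, 3 knockouts against 2 controls remained. The log2 fold changes were then -1.27 for Plac9a, -1.32 for Tmem254a and -1.44 for Duxbl1, and 1 of the 3, Tmem254a, was past the threshold. Over all genes, that fit called only 8 as lower and 7 as higher, against 227 and 203 with every library. The order of the 3 fold changes differed between the fits with and without the lens-rich libraries. Without knockout 1, too, Duxbl1 (-1.87) had a larger decrease than Plac9a (-1.63).

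Compared per length, Duxbl1 had the lowest level of the 3 in all 8 libraries, while the order of Plac9a and Tmem254a depended on the gene length used. In the authors' FPKM (counts divided by library total and by gene length), Plac9a averaged 29.1 ± 9.17 in controls and 9.13 ± 1.11 in knockouts (SD, n = 4 each). Tmem254a was at 6.40 ± 0.77 and 2.83 ± 0.07 FPKM. Duxbl1 was at 1.33 ± 0.34 and 0.44 ± 0.16 FPKM. Within each group the 3 genes' ranges of FPKM did not overlap, with Plac9a highest and Duxbl1 lowest. The mean FPKM of Plac9a over the 8 libraries was above that of 80.5% of tested genes, that of Tmem254a above 47.5% and that of Duxbl1 above 23.7%. These levels rest on how reads shared between copies were counted, which is not known. They also rest on the gene lengths that the FPKM imply, 451 bases for Plac9a, 2375 for Tmem254a and 4727 for Duxbl1. The longest GENCODE transcripts are 1555, 2147 and 2266 bases long, so the length behind the FPKM is shorter than that for Plac9a and longer for Tmem254a and Duxbl1. With these transcript lengths, a choice made after seeing the data, Plac9a was at 8.44 ± 2.66 in controls and 2.65 ± 0.32 in knockouts (rescaled FPKM, SD, n = 4 each). Tmem254a was then at 7.08 ± 0.85 and 3.13 ± 0.07, and Duxbl1 at 2.79 ± 0.71 and 0.93 ± 0.33. Plac9a lay above Tmem254a in controls 1, 2 and 3 and in knockout 2, and below it in the other 4 libraries.

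The 3 genes did not move as 1 unit from library to library. The FPKM of Plac9a was 2.9, 3.87, 3.02 and 3.12 times that of Tmem254a in knockouts 1 to 4, and 4.26, 5.8, 6.52 and 2.27 times in controls 1 to 4. The controls thus ranged on both sides of the knockouts. The ratio of Plac9a to Duxbl1 averaged 22.4 ± 6.93 in knockouts and 22.3 ± 8.09 in controls (SD, n = 4 each). After the mean of each group was removed, the log2 CPM of Plac9a and Tmem254a had a Pearson r of -0.81 over the 8 libraries. It was 0.20 for Plac9a and Duxbl1 and -0.34 for Tmem254a and Duxbl1. These values share libraries and scaling and are given as a description. The r of -0.81 leans on control 4, the lowest control for Plac9a (7.67 CPM) and the highest for Tmem254a (17.8 CPM). It was not computed without that library or within each group, so it shows no general opposition of the 2 genes.

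No tested gene on either side of the block was called by edgeR. Of 35 other genes with a row within 1 Mb of the block, 13 were abundant enough to test. None passed the threshold in either direction (edgeR, against 2.55% of all tested genes). At that share 13 genes would often hold no call, so nothing particular to the flanks is read from this. At an unadjusted p under 0.05 there were 2 of the 13, against 3596 of all 16861 tested genes. DESeq2 called 1, as higher, against 596 higher and 724 lower over all genes. The log2 fold changes of the 13 ran from -0.49 to 0.42 with a median of 0.00, 7 of them positive and 6 negative. The other 22 had at most 23 counts in any library.

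On the Plac9a side the adjoining gene is Anxa11, which encodes a calcium-dependent membrane-binding protein. Its counts were 229, 209, 210 and 198 in the knockouts and 142, 133, 128 and 205 in the controls. It was thus a little higher in the knockout, with control 4 among the knockout values (log2 fold change 0.37, SE 0.18, edgeR adjusted p = 0.25). Zcchc24, a zinc finger gene further out, had the smallest adjusted p of the flanks. The knockouts averaged 24.1 ± 3.72 CPM and the controls 18.1 ± 1.28 CPM (SD, n = 4 each; log2 fold change 0.42, SE 0.12, edgeR adjusted p = 0.0826). It was the gene that DESeq2 called (adjusted p = 0.0302). Zmiz1, which encodes a transcriptional co-regulator, had a log2 fold change of 0.32 (SE 0.18, edgeR adjusted p = 0.33). Without control 4, all 3 of these genes passed as higher in the knockout (edgeR adjusted p = 0.0456 for Anxa11, 0.0453 for Zcchc24 and 0.00156 for Zmiz1). Over all genes, that fit called 1806 as higher and 1403 as lower, against 203 and 227 with every library. The 3 calls are therefore not read as a trait of the flanks. No gene of the flanks passed as lower in any of these fits.

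On the far side the next row of the table after Duxbl1 in map order is Gm46445, which starts at position 26312495 and had at most 4 counts in a library. The first tested gene is Gm34223, a long non-coding RNA, with 107, 66, 81 and 86 counts in the knockouts and 119, 101, 80 and 143 in the controls. Its groups overlapped (log2 fold change -0.49, SE 0.24, edgeR adjusted p = 0.253). Slmap, which encodes a tail-anchored membrane protein, averaged 260.5 ± 15.1 CPM in knockouts and 284 ± 11.6 CPM in controls (SD, n = 4 each; log2 fold change -0.13, SE 0.08, edgeR adjusted p = 0.393).

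**Figure D3:**
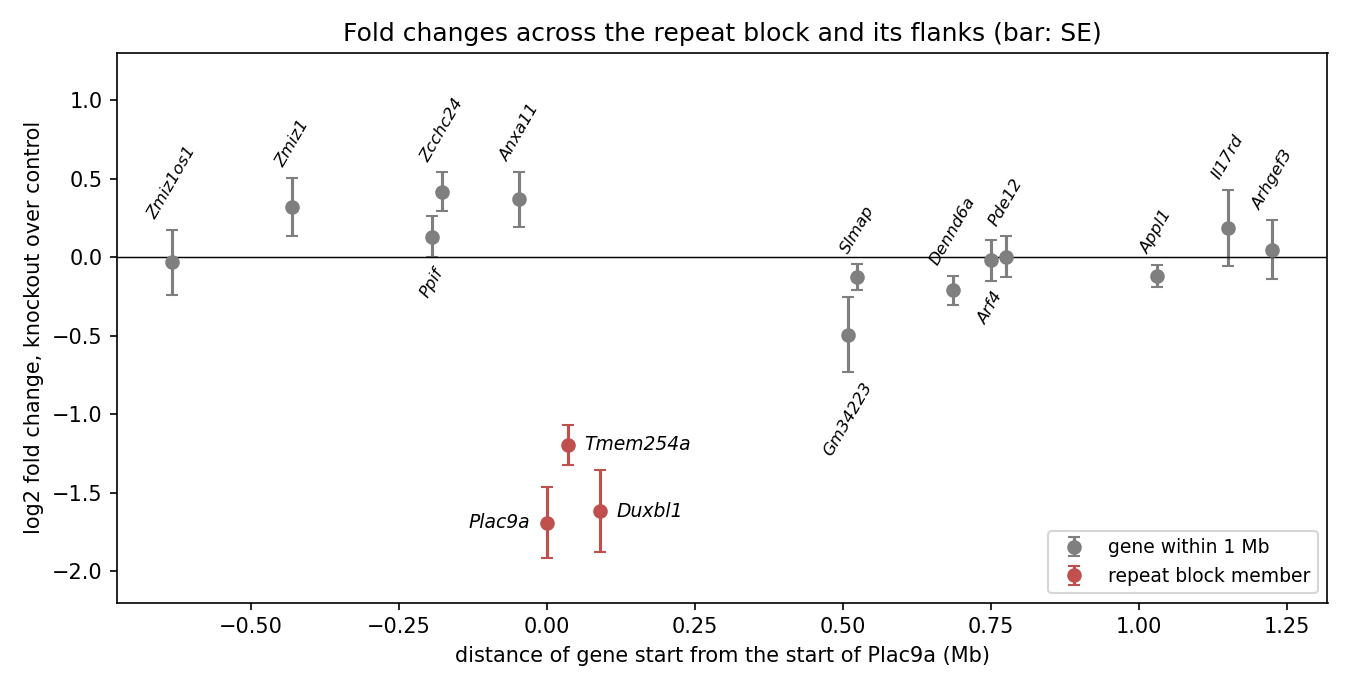
Log2 fold change (knockout over control, bar: SE) of the 3 repeat block genes and of the 13 tested genes within 1 Mb, against the distance of each gene's start from that of Plac9a. The block genes lie between -1.69 and -1.20 and the flanking genes between -0.49 and 0.42.

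Related genes with a row gave little signal. Of 7 other symbols of the Dux and Cphx homeobox families that were looked up, 5 name genes of the block itself (Duxbl2, Duxbl3 and Cphx1 to Cphx3). Dux and Duxf3 were looked up as separate symbols, and whether they name the same gene was not checked. Only Duxf3 was analysed here, with 1 count in control 4 and none elsewhere. Of 17 genes of the embryonic programme that Dux drives, 5 had a row and 2 could be tested. Arg2, an arginase also made by many adult cells, had a log2 fold change of -0.29 (edgeR adjusted p = 0.171), and Sp110 one of 0.92 (edgeR adjusted p = 0.289). Tcstv1, Tcstv3 and Usp17ld had at most 10, 4 and 4 counts. Among other genes named for the placenta, Plac8 had 8 to 24 counts in the knockout and 14 to 33 in the control (log2 fold change -0.52, edgeR adjusted p = 0.541), while Plac1 and Plac8l1 had at most 3 and 1.

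The genes whose levels most resembled each block gene over the 8 libraries did not include the other block genes. For Plac9a the closest of 14683 genes were Usp37, D3Ertd751e, Pyurf, Hhipl2 and A430035B10Rik, with Pearson r of log2 CPM from 0.991 to 0.98. For Duxbl1 they were Klhl33, Metap1, Gm40462, 4833420G17Rik and Relch (r from 0.98 to 0.978). For Tmem254a they were LOC115490200, Adss, Lrrc40, Gm15446 and Cd274 (r from 0.982 to 0.976). Most of these had modest differences between the groups, such as a log2 fold change of -0.18 for Usp37. LOC115490200 averaged 57.1 CPM in controls and 0.40 CPM in knockouts, and Gm15446 at 9.89 and 0.01 CPM. The block genes were less like each other, with r of 0.852 for Plac9a and Tmem254a, 0.876 for Plac9a and Duxbl1 and 0.877 for Tmem254a and Duxbl1. These correlations include the difference between the groups.

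The libraries held 31743404 to 36438248 counts. Cd274, the targeted gene, averaged 0.34 ± 0.08 CPM in knockouts and 4.48 ± 0.54 CPM in controls (SD, n = 4 each; log2 fold change -3.73, edgeR adjusted p = 1.57e-05), with 9 to 15 counts per knockout library and 117 to 165 per control library. Rod photoreceptor markers summed to 34187 to 50623 CPM and Müller glia markers to 3130 to 4457 CPM over the 8 libraries. Of the sex-linked genes, Xist had 97550 to 164308 counts and Eif2s3y at most 6 in every library, while Kdm5d ranged from 452 to 963 counts in knockouts and from 0 to 4 in controls.

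Markers of other cells were set beside the block genes, and their part in the differences was not tested. The calls below compare the markers themselves between knockout and control. Red cell markers were lower in the knockout (4 of 4 tested passed, against 1.35% of all tested genes as lower), summing to 1.68 to 4.03 CPM there and 10.1 to 14.5 CPM in the control. None of 9 fibroblast markers passed (2.55% of all tested genes did, in either direction), and their sums overlapped (37.8 to 49.6 CPM in knockouts, 41.0 to 48.6 CPM in controls). Pdgfra held the largest part of that sum, with means of 16.2 CPM in knockouts and 15.7 CPM in controls. The median log2 fold change of the 9 was -0.10. Dcn and Lum were lowest at -0.91 and -0.88 (edgeR adjusted p = 0.17 and 0.361), and Mgp highest at 0.44 (edgeR adjusted p = 0.352). One of 5 endothelial markers passed, Vwf, as higher (1.2% of all tested genes did so), and the list summed to 180.3 to 197.6 CPM in knockouts and 134.7 to 185.5 CPM in controls. One of 6 pigment epithelium markers passed, Rgr, as higher (1.2% of all tested genes did so), and the median log2 fold change of the 6 was 0.93. Rgr had a log2 fold change of 1.06, Rpe65 of 0.98, Ttr of 0.96 and Lrat of 0.89 (edgeR adjusted p = 0.0444, 0.0973, 0.0735 and 0.0968). Rlbp1, which Müller glia also make, held most of the list's sum with a mean of 400.4 CPM in knockouts and 392.3 CPM in controls. The other 5 summed to 119.0 to 267.9 CPM in knockouts and 62.2 to 141.0 CPM in controls, with knockout 1 alone inside the control range. None of 11 tested lens markers passed (2.55% of all tested genes did, in either direction). Lens markers summed to 2053 CPM in knockout 3, 4908 CPM in control 2 and 1372 CPM in control 3, against 3.53 to 36.1 CPM in the other libraries. Controls 2 and 3 had the highest Plac9a levels, whereas knockout 3 was in the middle of the knockouts.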

How the data were processed

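Retina messenger RNA was sequenced in 4 PD-L1 knockout and 4 control samples. The submitters' processing notes list fastp, HISAT2 and HTSeq with build mm10; for versions, gene annotation, strand setting and the treatment of reads with several alignments, nothing is given in the sources used here. The authors deposited whole read counts per gene, not normalized, and FPKM values, which per the deposited files equal counts divided by the library total and 1 length per gene. All columns were matched to samples by title.

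The count model was edgeR 4.0.16 (R 4.3.3): TMM scaling, filterByExpr (minimum count 10, total 15; 16861 genes kept), a quasi-likelihood test of knockout against control without covariates, Benjamini-Hochberg adjustment over the tested genes and a threshold of 0.05. The fit was tested on simulated data. The SE of a fold change is its absolute log2 value over the root of its F statistic. The members, lists and rules were chosen with earlier results of these data known. The named genes are the 3 members, Cd274, and the flanking genes that adjoin the block or passed the threshold under any fit. Gm34223 and Slmap, the first tested genes on the far side, are named too. So are the 5 genes most like each member in log2 CPM (prior count 2, mean of at least 1 CPM). Sums over copies could not be formed, as 1 copy per family was analysed. Positions and promoters come from RefSeq on GRCm38.p6 (24629 genes matched by Entrez identifier), transcripts from GENCODE M21 on the same assembly, whose 141767 transcripts were searched on both strands for windows of the members. At this depth 1 count is about 0.03 CPM, and counts without molecular identifiers do not show PCR duplicates. DESeq2 1.42.0, limma 3.58.1 on log2(FPKM + 1) and log2(FPKM + 0.1), other scalings and filters, left-out libraries and the title number as a block were the alternatives.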

Additional observations from a re-analysis of the deposited data

Results flagged for a closer look

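Of 32 groups of 4 libraries examined, 1 held a library far from the other 3. The lens markers summed to 2053 CPM in knockout 3, against 3.53 to 26.6 CPM in the other knockouts. Chance flags about 1 in 20 groups. Plac9a, Tmem254a and Duxbl1 had no such library in either group.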

How the results depend on the processing

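The 3 block genes, chosen from this comparison, had a negative log2 fold change in every alternative run. Without the 3 libraries rich in lens transcripts (3 knockouts against 2 controls) it was -1.27 for Plac9a, -1.32 for Tmem254a and -1.44 for Duxbl1. In that fit 1 of the 3 was past the threshold, and only 8 genes were called lower over all genes. On log2(FPKM + 1) the values shrank to -0.94 for Tmem254a and -0.69 for Duxbl1, as the added 1 weighs on low levels. With 1 library left out, the log2 fold changes ran from -1.88 to -1.56 for Plac9a, -1.26 to -1.11 for Tmem254a and -1.87 to -1.47 for Duxbl1. Higher flanking genes numbered 0 to 3 with 1 library left out (3 without control 4) and 1 by DESeq2. Of Duxbl1 windows, 93.5% at 50 bases and 80.6% at 150 bases were shared.

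Over all genes, 203 were higher and 227 lower. These counts were 336 and 354 without a filter, 596 and 724 by DESeq2, and 7 and 8 without the 3 lens-rich libraries. With library size alone, 131 were lower (207 higher), and on log2(FPKM + 1) and log2(FPKM + 0.1) 78 and 103. With 1 library left out, 62 to 1806 were higher and 46 to 1403 lower, the highest without control 4. The title numbers gave no clear sign of pairing (correlations of same-numbered deviations 0.21, -0.04, 0.12 and 0.01, and -0.29 to 0.24 for the other pairs). With 4 libraries per group this cannot show that no pairing existed. With the replicate block 121 were higher and 107 lower, and the block genes were at -1.64, -1.19 and -1.63, all 3 past the threshold. The cause of these shifts was not tested.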
